A study of Mus musculus with 18 samples.

Results

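The genes described here are 10 genes of arachidonic acid metabolism, chosen by name: Alox5, Alox5ap, Ltc4s, Lta4h and Cysltr1 of the leukotriene branch, and Ptgs1, Ptgs2, Hpgds, Ptger2 and Ptger4 of the prostaglandin branch. All 10 were found among the 23284 gene symbols of the mouse tables and, under their human symbols, among the 25409 symbols used of the eosinophil tables. RNA was sequenced in 18 libraries, 3 for each of 6 groups. T helper 2 (Th2) memory cells high in ST2, the receptor of the alarmin interleukin 33 (IL-33), were kept for 3 days in culture with IL-2 plus IL-33 or with IL-2 alone. Eosinophils had been cultured for 3 days with amphiregulin, a ligand of the epidermal growth factor receptor, or without it. Whole lung came from dGATA or wild-type mice, both treated with OVA. All libraries are labelled BALB/c. The labels call the dGATA mice knockouts but do not name the gene or allele, give no age or sex, and do not say how OVA was given. Whether the libraries of a group are from separate animals, donors or cultures is not stated, so p-values measure the spread between these libraries, which may be technical.

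The eosinophil tables list human genes and human coordinates although their labels name mouse, and they were read as human tables with symbols in capitals. The only build that the processing notes name is mm10, a mouse build, and no human build is named for these tables. Values were fragments scaled to transcript length and library size (FPKM). Total depth is not given, and relative depth estimated from low values spanned 0.67 to 1.34 among Th2, 0.36 to 1.0 among eosinophil and 0.58 to 1.0 among lung libraries. Differences are on the log2(FPKM + 1) scale, which understates the change of low genes, and limma tested the genes that reached 1 FPKM in 3 or more of the 6 libraries of a comparison. A gene was called higher or lower at a Benjamini-Hochberg adjusted p below 0.05 over all genes tested. The Th2 libraries held T cell RNA, with Cd3e between 144 and 180 FPKM in all 6 and Epx and Prg2 listed at 0. The eosinophil libraries had CLC, the Charcot-Leyden crystal gene, at 867 to 2620 FPKM with amphiregulin and 1235 to 4483 FPKM without it. They also held the neutrophil and monocyte genes S100A8 and S100A9, at 2882 to 7810 FPKM with amphiregulin and 3198 to 11392 FPKM without it. In the lung, Gata1 read 0.126, 0.134 and 0.314 FPKM in the dGATA libraries and 1.65, 1.23 and 0.963 FPKM in the wild-type libraries, below the filter for a test.

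Arachidonic acid is cut from membrane phospholipids and then oxidised along separate branches. In the leukotriene branch, 5-lipoxygenase (Alox5) acts with its membrane partner FLAP (Alox5ap) to make leukotriene A4, which leukotriene A4 hydrolase (Lta4h) turns into the neutrophil and T cell attractant leukotriene B4 and leukotriene C4 synthase (Ltc4s) into the cysteinyl leukotrienes, which constrict airways and are read by the receptor Cysltr1. In the prostaglandin branch, the cyclooxygenases, constitutive Ptgs1 and inducible Ptgs2, make prostaglandin H2. Hematopoietic prostaglandin D synthase (Hpgds) converts it to prostaglandin D2, while prostaglandin E2 signals through receptors that include EP2 (Ptger2) and EP4 (Ptger4), both coupled to cyclic AMP. Eosinophils and mast cells are known sources of cysteinyl leukotrienes in allergic airways.

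Promoters of 8 of the 10 genes are in the RefSeq table of GRCm38.p6, each 300 bases long with 250 bases before the annotated start and 50 from it; Alox5ap and Cysltr1 are not in that table. Those of Ptgs2, Ptger2 and Ptger4 are shown because these prostaglandin genes carry the differences between Th2 cultures described next, Ptgs2 in one direction and both receptors in the other. Capitals mark matches to the motifs searched, and each sequence is given 5′ to 3′ on the gene's own strand.

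Ptgs2, chr1:150099781-150100080, plus strand: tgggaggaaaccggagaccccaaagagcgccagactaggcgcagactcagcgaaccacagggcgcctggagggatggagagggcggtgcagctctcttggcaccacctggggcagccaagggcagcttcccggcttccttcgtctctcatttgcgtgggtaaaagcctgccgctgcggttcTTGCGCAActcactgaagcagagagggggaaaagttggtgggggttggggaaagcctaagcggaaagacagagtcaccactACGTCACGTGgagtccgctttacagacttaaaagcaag
Ptger2, chr14:44987861-44988160, plus strand: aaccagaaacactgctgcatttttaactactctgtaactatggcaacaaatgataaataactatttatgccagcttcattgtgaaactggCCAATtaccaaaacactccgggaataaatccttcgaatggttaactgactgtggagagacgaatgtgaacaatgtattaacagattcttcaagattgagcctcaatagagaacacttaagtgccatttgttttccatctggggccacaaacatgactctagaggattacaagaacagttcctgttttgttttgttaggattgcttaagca
Ptger4, chr15:5244138-5244437, minus strand: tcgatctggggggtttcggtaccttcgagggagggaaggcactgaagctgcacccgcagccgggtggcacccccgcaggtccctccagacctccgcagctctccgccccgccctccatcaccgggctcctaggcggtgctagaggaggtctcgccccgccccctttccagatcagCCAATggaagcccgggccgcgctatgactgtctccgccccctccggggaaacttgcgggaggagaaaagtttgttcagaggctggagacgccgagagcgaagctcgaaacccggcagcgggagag

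Both strands were searched for 8 motifs. They were the core of the cyclic AMP response element (TGACGT), the AP-1 site (TGANTCA), the E-box (CACGTG), a C/EBP palindrome (TTGCGCAA), the TATA box (TATAAA), the site of GATA factors (AGATAA), the CCAAT box and the NF-kB site. The Ptgs2 window held the C/EBP palindrome, found in 0.18% of 32851 promoters, at bases -69 to -62 from the RefSeq start. It also held the cyclic AMP element core, found in 7.51% of promoters, as ACGTCA at bases 13 to 18, overlapping an E-box, found in 7.15%, at bases 17 to 22. The deposited tables start Ptgs2 downstream of both, at 150100124. The Ptger2 and Ptger4 windows held only a CCAAT box, a motif of 37.41% of promoters, at bases -160 to -156 and -75 to -71. On its minus strand, Ptger4 starts in the deposited tables at 5243831, downstream of the whole window shown. Of the 5 other promoters, only that of Lta4h held a match, a CCAAT box at bases -107 to -103 and another, reversed, at -60 to -56. AP-1 is found in 7.81% of the promoters, the TATA box in 13.62%, GATA in 11.18% and NF-kB in 8.46%. These matches describe letters in a fixed window and no measurement of binding.

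The first comparison asks how memory Th2 cells respond to IL-33. With IL-33 the inducible cyclooxygenase gene Ptgs2 rose, while the prostaglandin E2 receptor genes Ptger4 and Ptger2 and the leukotriene B4-forming hydrolase gene Lta4h fell. Alox5 and Alox5ap, whose products start leukotriene synthesis, stayed at or below 1.73 FPKM in every Th2 library. Of the 10 genes, 5 passed the filter, of which 1 rose, 3 fell and 1 was not called; over all 10296 genes tested, 42.1% were called, 16.3% higher and 25.7% lower. The 5 tested genes had a median log2 difference of -0.65, against -0.11 over all genes tested. In each of the 5 the groups did not overlap, as in 56.7% of all genes tested. Whether the 5 genes differ from the rest in these shares was not tested. The split of all calls depended on scaling: 38.8% of them were higher with FPKM as deposited, against 54.4% after rescaling to a common sum (TPM), under which the direction and call of each of these 5 genes stayed as given.

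Ptgs2 (chr1:150100124-150108012, mm10) had 12.7, 13.1 and 17.1 FPKM with IL-33, in replicates 2, 4 and 6, against 1.65, 1.95 and 0.170 FPKM with IL-2 alone, in replicates 1, 3 and 5. Every IL-33 library lay far above every IL-2 library, and IL-2 replicate 5 was the lowest. The mean was 14.3 ± 2.44 FPKM with IL-33 and 1.26 ± 0.955 FPKM with IL-2 (SD, n = 3 each), an 11.4-fold ratio (log2 difference 2.86, SE 0.34, adjusted p = 0.00103, limma). Without IL-2 replicate 5 the log2 difference was 2.44. Ptgs1, the constitutive cyclooxygenase gene (chr2:36230426-36252269), was all but absent, at 0, 0.0683 and 0 FPKM with IL-33 and 0.0844, 0.191 and 0.126 FPKM with IL-2 (exact permutation p = 0.1, and no smaller p is possible with 3 libraries a group).

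Ptger4 (chr15:5233404-5243831) had 34.1, 38.0 and 38.2 FPKM with IL-33, against 119, 126 and 138 FPKM with IL-2. The libraries of each group lay close together and far from the other group. The means were 36.8 ± 2.31 FPKM with IL-33 and 127 ± 9.60 FPKM with IL-2 (SD, n = 3 each), 3.47-fold lower with IL-33 (log2 difference -1.77, SE 0.090, adjusted p = 2.98e-05, limma). Ptger2 (chr14:44988111-45003820) had 13.3, 14.3 and 22.8 FPKM with IL-33, against 27.3, 27.7 and 32.0 FPKM with IL-2. IL-33 replicate 6 was the highest of its group and came nearest to the IL-2 libraries. The means were 16.8 ± 5.21 FPKM with IL-33 and 29.0 ± 2.61 FPKM with IL-2, 1.73-fold lower with IL-33 (log2 difference -0.79, SE 0.19, adjusted p = 0.0169, limma). The call was lost without IL-33 replicate 2 (adjusted p = 0.0589, limma) or without IL-33 replicate 4 (0.0637).

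In the leukotriene branch, Lta4h (chr10:93453396-93484896) had 15.3, 15.6 and 16.7 FPKM with IL-33, against 24.6, 25.8 and 25.7 FPKM with IL-2. Both groups were tight and far apart. The means were 15.9 ± 0.723 FPKM with IL-33 and 25.4 ± 0.624 FPKM with IL-2, 1.60-fold lower with IL-33 (log2 difference -0.65, SE 0.073, adjusted p = 0.000855, limma). Alox5 (chr6:116410071-116461178) had 0.213, 0.300 and 0.386 FPKM with IL-33, against 1.37, 1.14 and 0.939 FPKM with IL-2. Alox5ap (chr5:149265058-149288047) was listed at 0 in all 3 IL-33 libraries and at 1.73, 1.68 and 0.690 FPKM with IL-2. Both lay below the filter, and the groups did not overlap (exact permutation p = 0.1 for each). In the fit with no filter, read for these genes after their values were seen, both were lower with IL-33, Alox5 by a log2 difference of -0.72 (adjusted p = 0.00489, limma) and Alox5ap by -1.21 (adjusted p = 0.00906, limma). In a bulk library, fewer cells of a type and less RNA per cell cannot be told apart. Markers of macrophages and monocytes, cells that are known to express both genes, summed to 4.51 to 7.93 FPKM over 10 genes with IL-33 and 4.95 to 8.64 FPKM with IL-2, with Marco and C1qa listed at 0 in all 6 libraries. Most of each sum was Cd68, at 3.78 to 7.46 FPKM with IL-33 and 4.18 to 8.11 FPKM with IL-2. Ltc4s (chr11:50236472-50238471) was listed at 0 in all Th2 libraries but IL-2 replicate 3, at 0.380 FPKM (exact permutation p = 1.0).

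Cysltr1 (chrX:106576517-106603462), the receptor for cysteinyl leukotrienes, had the highest level of the 10 genes in Th2 cells with IL-33, and its difference did not pass the test. It had 269, 251 and 152 FPKM with IL-33, against 143, 145 and 56.4 FPKM with IL-2. The groups did not overlap, but IL-33 replicate 6 came close to the upper IL-2 libraries, and IL-2 replicate 5 was well below its own group. The means were 224 ± 63.2 FPKM with IL-33 and 115 ± 50.5 FPKM with IL-2 (log2 difference 1.04, SE 0.39, adjusted p = 0.0722, limma). The call appeared without IL-33 replicate 6 (log2 difference 1.29, adjusted p = 0.0416) and with all 12 mouse libraries in 1 fit (0.0252), and without IL-2 replicate 5 the log2 difference was 0.59 (adjusted p = 0.109). The fit of all 12 pools in the spread of the lungs, where Cysltr1 ran from 1.44 to 2.48 FPKM. Replicates 5 and 6 had the lowest relative depth of the Th2 libraries, 0.67 and 0.74, and the part of depth in the result was not tested. Cysltr1 overlaps the predicted gene Gm5127, which had 32.8, 29.5 and 15.3 FPKM with IL-33 and 12.8, 13.9 and 5.51 FPKM with IL-2; the strand setting of the counting is not given, so reads of the 2 genes cannot be told apart here. Hpgds (chr6:65117293-65144730) had 1.25, 1.57 and 0.916 FPKM with IL-33 and 0.822, 0.775 and 0.724 FPKM with IL-2, which kept it out of the limma fit (exact permutation p = 0.1, again the lowest possible).

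**Figure D1:**
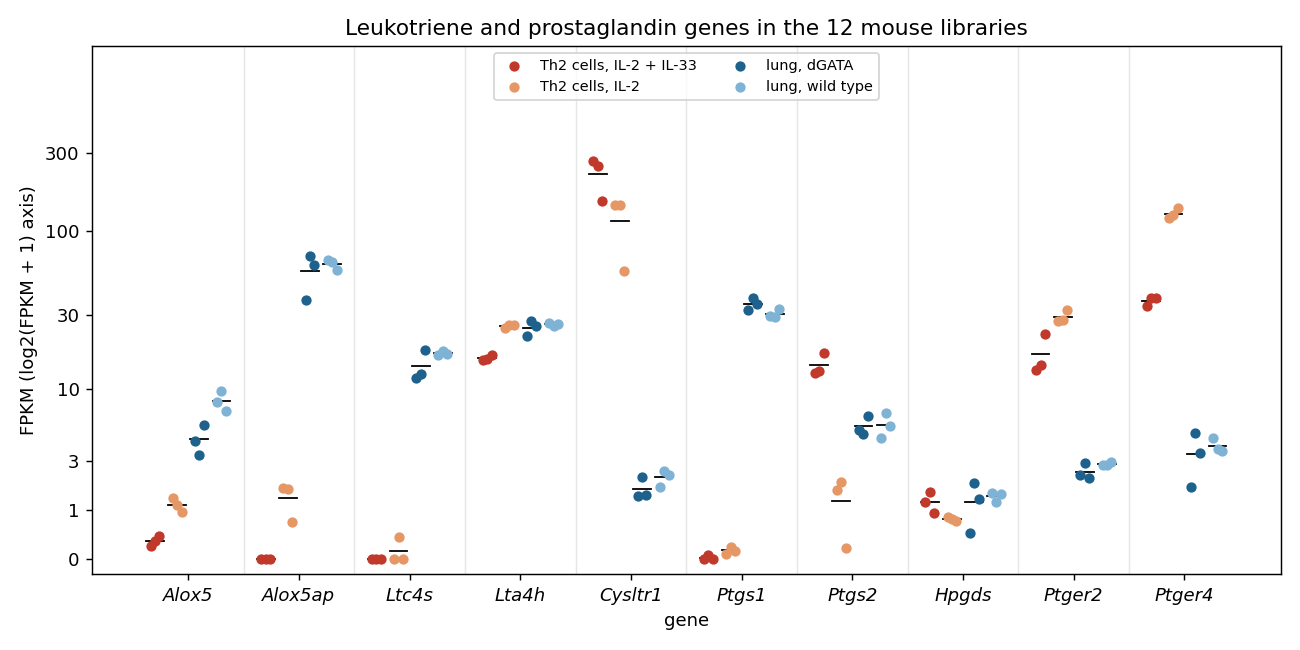
FPKM of the 10 genes in the 12 mouse libraries, on a log2(FPKM + 1) axis; each point is a library and each line a group mean. Ptger4, Ptger2 and Cysltr1 are higher in the Th2 cells than in lung, Alox5, Alox5ap, Ltc4s and Ptgs1 are higher in lung, and Ptgs2 is highest in Th2 cells with IL-33 (12.7 to 17.1 FPKM).

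Around these genes, 51 further genes of arachidonate release, lipoxygenases, leukotriene and prostanoid synthesis, breakdown and reception were listed, all present in the tables. In Th2 cells 19 of them were tested, of which 6 rose, 5 fell and 8 were not called, beside 16.3% higher and 25.7% lower over all genes tested. Their median log2 difference was 0.12, against -0.11 over all genes tested. Both tested leukotriene receptor genes rose. Ltb4r1, the high-affinity leukotriene B4 receptor gene, had 134, 163 and 107 FPKM with IL-33, against 26.9, 27.9 and 15.7 FPKM with IL-2 (log2 difference 2.50, SE 0.24, adjusted p = 0.000451, limma). Cysltr2, the other cysteinyl leukotriene receptor gene, had 20.6, 21.9 and 24.3 FPKM with IL-33, against 3.04, 3.35 and 4.91 FPKM with IL-2 (log2 difference 2.31, SE 0.15, adjusted p = 8.96e-05, limma). In both genes the groups were far apart.

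Of the 12 genes of arachidonate release, 5 were tested, of which 2 rose and 2 fell. Mgll, the monoacylglycerol lipase gene, averaged 35.6 ± 3.25 FPKM with IL-33 and 9.14 ± 0.917 FPKM with IL-2 (log2 difference 1.85, adjusted p = 4.38e-05, limma). Pla2g12a, a secreted phospholipase A2 gene, averaged 97.0 ± 15.1 FPKM with IL-33 and 41.2 ± 10.9 FPKM with IL-2 (log2 difference 1.24, adjusted p = 0.00462, limma). Plaa, the phospholipase A2-activating protein gene, fell to 16.8 ± 0.505 FPKM with IL-33, against 24.1 ± 0.790 FPKM with IL-2 (log2 difference -0.49, adjusted p = 0.00235, limma). Pla2g6, a calcium-independent phospholipase A2 gene, averaged 6.39 ± 0.781 FPKM with IL-33 and 8.40 ± 0.961 FPKM with IL-2 (log2 difference -0.35, adjusted p = 0.0486, limma), a call that held only without IL-33 replicate 6 (adjusted p = 0.0205) when single libraries were left out and otherwise had an adjusted p of up to 0.147. With all libraries kept it was lost under TPM (0.148), median-of-ratios scaling (0.0727), no filter (0.0851) and 1 fit of all 12 mouse libraries (0.0618). The lipoxygenase gene Alox8 rose to 4.40 ± 1.06 FPKM with IL-33, against 0.761 ± 0.0238 FPKM with IL-2 (log2 difference 1.60, adjusted p = 0.000446, limma).

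Among the prostanoid genes, Ptgir, the prostacyclin receptor gene, rose to 30.4 ± 3.16 FPKM with IL-33, against 22.1 ± 0.636 FPKM with IL-2 (log2 difference 0.43, adjusted p = 0.00999, limma; 0.481 with all 12 mouse libraries in 1 fit). The fit of all 12 pools in the spread of the lungs, where Ptgir ran from 0.886 to 10.9 FPKM in dGATA. The SE of Ptgir was 0.472 in that fit and 0.0919 in the fit of Th2 libraries alone. With single Th2 libraries left out, its adjusted p ran from 0.0103 to 0.0406 (limma). Ptges3, a cytosolic prostaglandin E synthase and Hsp90 co-chaperone gene, fell to 65.0 ± 7.11 FPKM with IL-33, against 104 ± 16.4 FPKM with IL-2 (log2 difference -0.66, adjusted p = 0.0103, limma). Tbxa2r, the thromboxane receptor gene, averaged 2.04 ± 0.133 FPKM with IL-33 and 2.96 ± 0.323 FPKM with IL-2 (log2 difference -0.38, adjusted p = 0.0225, limma). Its call was lost without IL-33 replicate 2 (0.0782), IL-33 replicate 4 (0.0569) or IL-2 replicate 3 (0.0538), and under TPM (0.0704). Ptgr2, a prostaglandin reductase gene, averaged 4.77 ± 0.436 FPKM with IL-33 and 6.14 ± 0.186 FPKM with IL-2 (log2 difference -0.31, adjusted p = 0.0312, limma). Its call was lost without IL-33 replicate 2 (0.0924), IL-33 replicate 4 (0.114), IL-2 replicate 1 (0.0960) or IL-2 replicate 3 (0.0980). It was also lost under TPM (0.132), median-of-ratios scaling (0.0663) and no filter (0.0557). Of the 9 T cell markers, 7 rose and 1 fell with IL-33, their sum running from 2325 to 2403 FPKM with IL-33 and from 1340 to 1612 FPKM with IL-2; the part of this in the gene differences was not tested. The eosinophil sum also stood apart, at 5.82 to 8.02 FPKM with IL-33 and 0.670 to 1.73 FPKM with IL-2, nearly all from Ccr3, which rose. The epithelial sum was 2.94 to 3.74 FPKM with IL-33 and 6.01 to 10.2 FPKM with IL-2, and the endothelial sum 13.1 to 19.7 FPKM with IL-33 and 23.7 to 41.7 FPKM with IL-2, with 1 gene of each list lower. Their part in the result was not tested either.

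**Figure D2:**
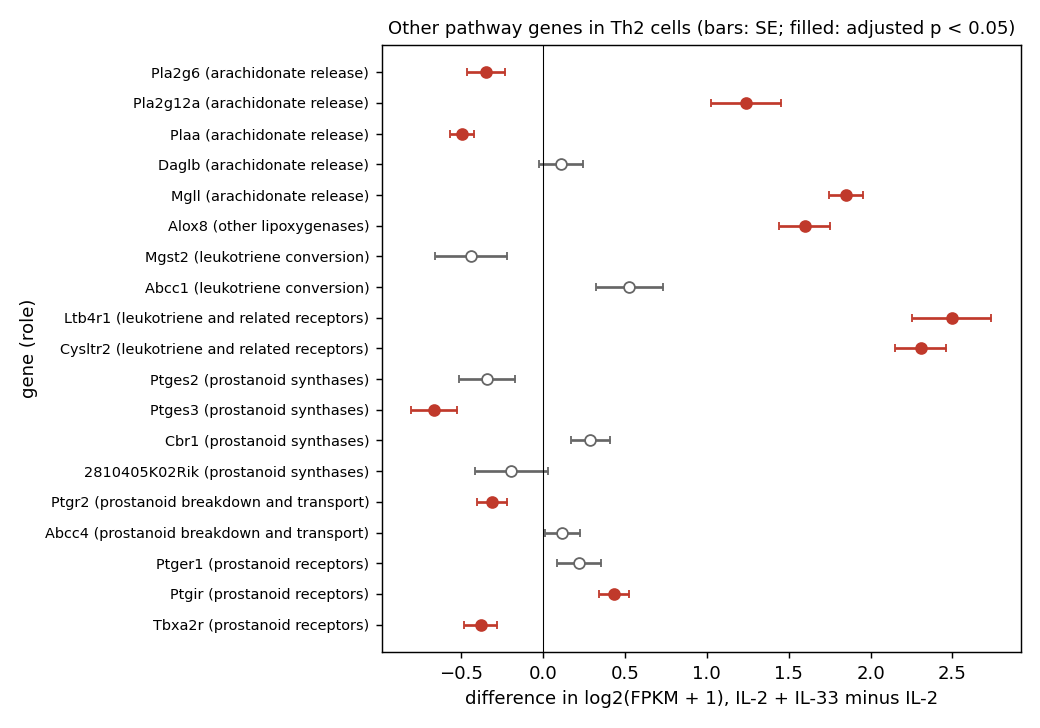
Difference in log2(FPKM + 1), IL-2 plus IL-33 minus IL-2, of the 19 tested pathway genes outside the 10, with the SE from limma; filled points have an adjusted p below 0.05. Ltb4r1 (2.50) and Cysltr2 (2.31) lie furthest to the right and Ptges3 (-0.66) furthest to the left.

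The second comparison asks what amphiregulin changes in eosinophils. ALOX5AP, LTC4S, ALOX5 and LTA4H, the genes of leukotriene synthesis, had the highest mean levels of the 10 genes in both cultures. Of the cyclooxygenase genes, PTGS1 ran from 14.4 to 34.2 FPKM and PTGS2 from 0.269 to 1.20 FPKM over all 6 libraries. None of the 9 genes that passed the filter was called, against 0.206% of 12617 genes tested, 0.0317% higher and 0.174% lower; at an unadjusted p below 0.05, 3.11% of all genes and none of the 9 passed. Their median log2 difference was -0.12, against 0.02 over all genes tested. Libraries with the same sample number deviated together, and fitting the number as a block raised the calls over all genes to 1.12% but again called none of the 9. The groups overlapped in each of these 9 genes, and 6.7% of all genes had groups that did not. The 2 libraries numbered 4 stood apart from those numbered 2 and 3 in several of the genes, so values are also given within each number. In number 4, LTA4H (13.4 FPKM with amphiregulin and 18.8 FPKM without it) lay below PTGS1 (34.2 FPKM with it and 27.2 FPKM without it).

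ALOX5AP had 364, 355 and 541 FPKM with amphiregulin, in numbers 2, 3 and 4, against 397, 462 and 486 FPKM without it. Number 4 was higher with amphiregulin and the other two were lower. ALOX5 had 106, 102 and 212 FPKM with amphiregulin, against 135, 147 and 229 FPKM without it, lower in 3 of 3 numbers (log2 difference -0.32, SE 0.38, adjusted p = 0.999, limma; 0.580 with the block). LTC4S had 127, 52.2 and 330.0 FPKM with amphiregulin, against 167, 58.6 and 330.2 FPKM without it. It differed more between sample numbers than between cultures. LTA4H had 89.7, 85.3 and 13.4 FPKM with amphiregulin, against 155, 150 and 18.8 FPKM without it. It was lower with amphiregulin in 3 of 3 numbers, and number 4 was far below the others in both cultures (log2 difference -0.68, SE 1.03, adjusted p = 0.999, limma). With the block the SE was 0.17 and the adjusted p 0.152, and with the block and without number 4 the log2 difference was -0.79 (adjusted p = 0.141).

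In the prostaglandin branch, PTGS1 had 23.5, 31.5 and 34.2 FPKM with amphiregulin, against 14.4, 16.7 and 27.2 FPKM without it. It was higher with amphiregulin in 3 of 3 numbers, although the groups overlapped (log2 difference 0.62, SE 0.30, adjusted p = 0.999, limma; 0.241 with the block). PTGS2 was low, at 0.443, 0.305 and 0.329 FPKM with amphiregulin and 0.719, 1.20 and 0.269 FPKM without it (exact permutation p = 0.4). HPGDS had 3.77, 4.54 and 0.400 FPKM with amphiregulin, against 4.52, 10.6 and 1.64 FPKM without it, lower in 3 of 3 numbers and lowest in number 4 in both cultures (log2 difference -0.73, SE 0.71, adjusted p = 0.999, limma). The receptor genes kept no direction across numbers. PTGER2 had 9.73, 7.93 and 1.86 FPKM with amphiregulin and 5.24, 7.94 and 5.28 FPKM without it. PTGER4 had 12.4, 13.8 and 8.08 FPKM with amphiregulin and 11.9, 7.76 and 17.0 FPKM without it. CYSLTR1 had 7.92, 6.00 and 12.7 FPKM with amphiregulin and 4.79, 8.31 and 12.3 FPKM without it. The directions of ALOX5AP, LTC4S, PTGER2 and PTGER4 turned under rescaling to a common sum, which moved the median of all genes to 0.21.

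**Figure D3:**
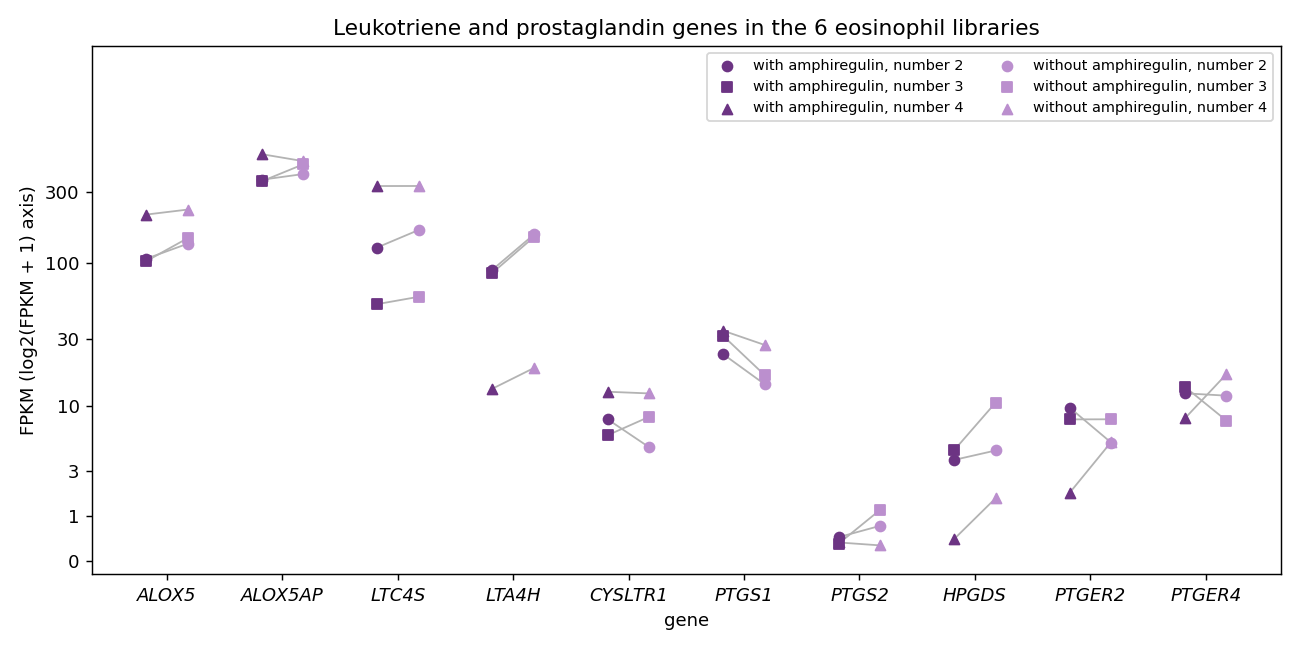
FPKM of the 10 genes in the 6 eosinophil libraries, on a log2(FPKM + 1) axis; lines join libraries of the same sample number, with amphiregulin on the left. LTA4H and HPGDS fall below the others in number 4 (for LTA4H 13.4 FPKM with amphiregulin and 18.8 FPKM without it), LTC4S is highest there, and no gene separates the cultures.

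Summed FPKM of several other cell types' markers moved with the sample numbers. The mast cell and basophil sum was 159, 629 and 93.9 FPKM with amphiregulin and 236, 945 and 131 FPKM without it, in numbers 2, 3 and 4. The macrophage and monocyte sum was 560, 843 and 326 FPKM with amphiregulin and 1197, 1020 and 355 FPKM without it. The T cell sum was 350, 286 and 133 FPKM with amphiregulin and 534, 494 and 231 FPKM without it. These sums were each lowest in number 4, the number in which LTA4H and HPGDS were lowest. EMR1 of the macrophage and monocyte list went against its sum and was highest in number 4. It had 54.6, 26.1 and 164 FPKM with amphiregulin and 75.3, 23.8 and 179 FPKM without it. The neutrophil sum, the largest of the lists, ran from 6741 to 13700 FPKM with amphiregulin and from 8065 to 20430 FPKM without it. The eosinophil sum was 1089, 1332 and 2777 FPKM with amphiregulin and 1625, 1356 and 4730 FPKM without it. It was highest in number 4 in both cultures, as were ALOX5, ALOX5AP, LTC4S, PTGS1 and CYSLTR1. Most of that sum was CLC, and the granule protein genes did not follow it. PRG2 had 138, 108 and 8.63 FPKM with amphiregulin, lowest in number 4, against 37.9, 29.9 and 26.2 FPKM without it. EPX, the eosinophil peroxidase gene, had 23.6, 2.26 and 0.561 FPKM with amphiregulin, against 1.45, 0 and 0.552 FPKM without it. Some markers also stood apart between cultures, with no marker called in the fit without the block. The monocyte gene CD14 had 10.8, 12.5 and 0.852 FPKM with amphiregulin, against 246, 221 and 14.3 FPKM without it. CD163 and MERTK of the same list were likewise lower with amphiregulin in every library. Other members of that list went the other way within each number. CSF1R had 63.4, 75.5 and 9.68 FPKM with amphiregulin, against 58.1, 54.6 and 6.53 FPKM without it. C1QB had 83.7, 124.9 and 4.03 FPKM with amphiregulin, against 63.3, 23.5 and 0.825 FPKM without it. CD209 of the dendritic cell list had 52.9, 35.9 and 8.21 FPKM with amphiregulin, against 0.532, 0.152 and 0.444 FPKM without it. The part of cell makeup in these values was not tested.

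Of the 51 further pathway genes, 31 were tested in the eosinophils and none was called without the block. The 3 with the smallest p did not pass. GGT5, which encodes a gamma-glutamyltransferase that converts leukotriene C4 to leukotriene D4, had 55.7, 46.5 and 129 FPKM with amphiregulin, against 7.26, 3.03 and 10.9 FPKM without it. All libraries with amphiregulin lay above all without it, and 6.7% of all genes tested had groups that did not overlap. The means were 77.2 ± 45.5 FPKM with amphiregulin and 7.06 ± 3.94 FPKM without it, a 10.9-fold ratio (log2 difference 3.26, SE 0.53, adjusted p = 0.218, limma), and with the sample number as a block GGT5 was the 1 pathway gene called (SE 0.21, adjusted p = 0.00137). ABCC4, an exporter of prostaglandins, averaged 23.9 ± 8.19 FPKM with amphiregulin and 12.2 ± 4.31 FPKM without it (log2 difference 0.92, SE 0.35, adjusted p = 0.999, limma; 0.0810 with the block). LTB4R, the leukotriene B4 receptor gene, averaged 15.9 ± 3.09 FPKM with amphiregulin and 24.5 ± 3.79 FPKM without it (log2 difference -0.60, SE 0.23, adjusted p = 0.999, limma; 0.277 with the block).

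The last comparison asks how the lung of OVA-treated dGATA mice differs from wild type. Alox5 was lower in every dGATA lung than in every wild-type lung without passing the test, and the other genes of the 10 overlapped between genotypes. All 10 genes passed the filter and none was called, against 0.0947% of 13727 genes tested, 0.0437% higher and 0.051% lower; at an unadjusted p below 0.05, 6.84% of all genes passed. Their median log2 difference was -0.19, against -0.03 over all genes tested. Alox5 was the 1 gene of the 10 whose groups did not overlap, as in 14.1% of all genes. It had 4.30, 3.32 and 5.59 FPKM in dGATA lungs, against 8.17, 9.60 and 7.06 FPKM in wild-type lungs. The means were 4.40 ± 1.14 FPKM in dGATA and 8.28 ± 1.27 FPKM in wild-type lungs (SD, n = 3 each), 1.88-fold lower in dGATA lungs (log2 difference -0.79, SE 0.18, unadjusted p = 0.00420, adjusted p = 0.450, limma), so the difference did not pass.

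The partners of Alox5 overlapped between genotypes. Alox5ap had 37.3, 69.5 and 61.3 FPKM in dGATA lungs, against 66.1, 63.8 and 57.0 FPKM in wild-type lungs, with dGATA replicate 1 the only low library. Ltc4s had 11.8, 12.5 and 17.9 FPKM in dGATA lungs, against 16.6, 17.6 and 17.0 FPKM in wild-type lungs; dGATA replicates 1 and 2 were lower than the tight wild-type group and replicate 3 was above it (log2 difference -0.28, SE 0.16, adjusted p = 0.776, limma). Lta4h had 21.9, 27.3 and 25.6 FPKM in dGATA lungs and 26.6, 25.6 and 26.2 FPKM in wild-type lungs. Cysltr1 had 1.44, 2.19 and 1.47 FPKM in dGATA lungs and 1.75, 2.48 and 2.26 FPKM in wild-type lungs.

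The prostaglandin genes also overlapped. Ptgs1 had 32.3, 38.2 and 35.1 FPKM in dGATA lungs, against 29.5, 29.0 and 32.7 FPKM in wild-type lungs, the 1 gene of the 10 with a higher mean in dGATA lungs on the log2 scale (log2 difference 0.20, SE 0.095, adjusted p = 0.751, limma). Ptgs2 had 5.12, 4.83 and 6.53 FPKM in dGATA lungs and 4.51, 6.80 and 5.55 FPKM in wild-type lungs (log2 difference -0.02, SE 0.16). For Ptgs2 both the lowest and the highest library were wild-type ones. Hpgds had 0.440, 1.91 and 1.34 FPKM in dGATA lungs and 1.56, 1.23 and 1.51 FPKM in wild-type lungs. Ptger4 had 1.77, 4.93 and 3.47 FPKM in dGATA lungs and 4.52, 3.71 and 3.57 FPKM in wild-type lungs. Ptger2 had 2.28, 2.88 and 2.12 FPKM in dGATA lungs and 2.74, 2.79 and 2.94 FPKM in wild-type lungs. In Alox5ap, Hpgds and Ptger4 the low library was dGATA replicate 1, which also had the lowest macrophage and monocyte sum, 208 FPKM against 1037 and 611 FPKM in the other dGATA lungs and 610 to 712 FPKM in wild type. Its T cell sum was lowest too, at 65.25 FPKM against 180.8 and 129.9 FPKM in the other dGATA lungs and 99.31 to 128.2 FPKM in wild type. The same held for its B cell sum, at 41.95 FPKM against 109.6 and 140.0 FPKM in the other dGATA lungs and 63.76 to 174.5 FPKM in wild type. The part of these lists in the gene values was not tested. Without dGATA replicate 1, the log2 differences of Alox5ap, Lta4h, Ptgs2, Hpgds and Ptger4 were above 0, at 0.07, 0.01, 0.02, 0.10 and 0.07, and that of Alox5 was -0.79 (adjusted p = 0.214, limma).

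**Figure D4:**
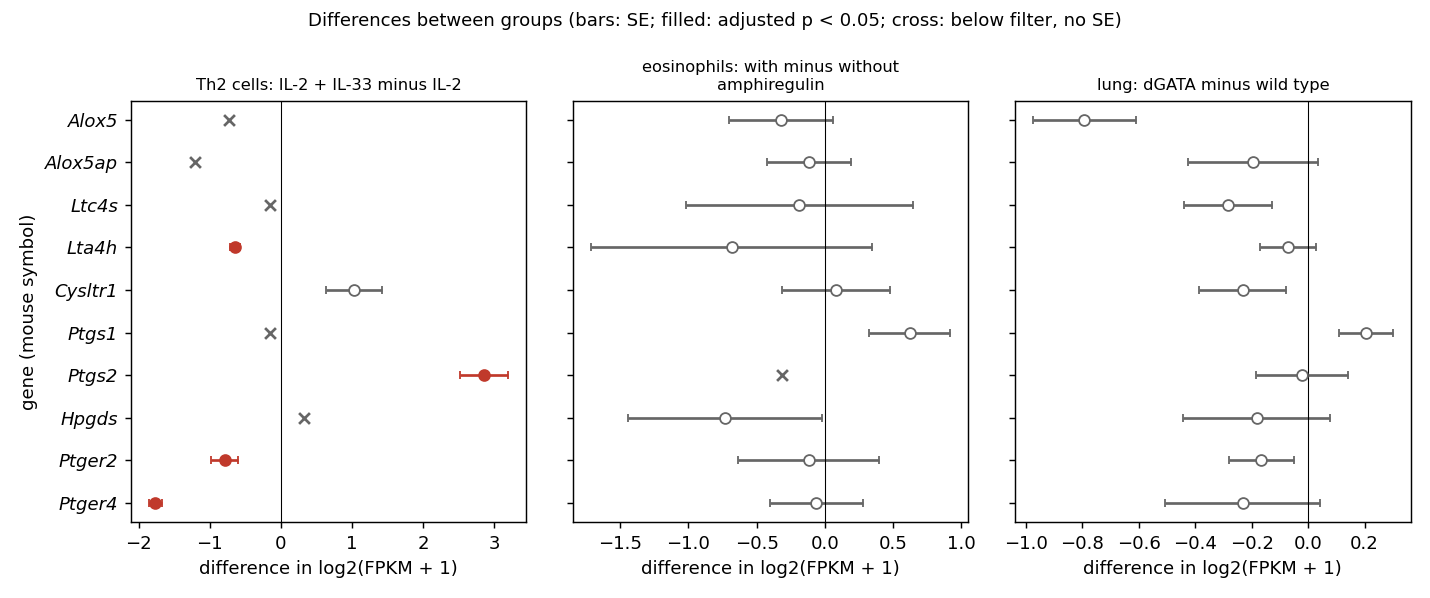
Difference in log2(FPKM + 1) of the 10 genes in each comparison, each panel with its own axis; bars are SE from limma, filled points have an adjusted p below 0.05 and crosses are genes below the filter. Ptgs2 (2.86), Lta4h (-0.65), Ptger2 (-0.79) and Ptger4 (-1.77) pass in the Th2 cells, and no gene passes in the other panels.

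Of the 51 further pathway genes, 35 were tested in the lung and none was called. The 3 with the smallest p did not pass. Because they were chosen by p, groups that lie apart follow in part from the choice. Groups did not overlap in 14.1% of all genes tested. Alox15, the gene of another arachidonate lipoxygenase, had 0.753, 2.68 and 4.23 FPKM in dGATA lungs, against 33.7, 26.6 and 17.8 FPKM in wild-type lungs. Every dGATA lung was well below every wild-type lung, and the means were 2.55 ± 1.74 FPKM in dGATA and 26.0 ± 7.98 FPKM in wild-type lungs, 10.2-fold lower in dGATA lungs (log2 difference -3.02, SE 0.43, adjusted p = 0.175, limma; 0.00165 with all 12 mouse libraries in 1 fit). Cyp4f18, whose enzyme hydroxylates leukotriene B4, had 1.85, 4.35 and 3.51 FPKM in dGATA lungs, against 22.2, 16.9 and 11.8 FPKM in wild-type lungs. Here too the groups were far apart, with means of 3.24 ± 1.27 FPKM in dGATA and 17.0 ± 5.20 FPKM in wild-type lungs, 5.24-fold lower in dGATA lungs (log2 difference -2.09, SE 0.30, adjusted p = 0.175, limma; 0.00198 with all 12 mouse libraries in 1 fit). The fit of all 12 pools in the spread of the Th2 libraries, where Alox15 reached 0.0916 FPKM and Cyp4f18 0.0748 FPKM at most. Its p-values therefore do not measure the spread of the lungs alone. With single lung libraries left out, the adjusted p ran from 0.0868 to 0.889 for Alox15 and from 0.119 to 0.889 for Cyp4f18 (limma). Ptgis, the prostacyclin synthase gene, averaged 38.6 ± 2.96 FPKM in dGATA lungs and 51.7 ± 6.71 FPKM in wild-type lungs (log2 difference -0.41, SE 0.12, adjusted p = 0.578, limma).

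Eosinophil markers differed between the same lungs. Ccr3, the eotaxin receptor gene, had 0.0493, 0.252 and 0.0729 FPKM in dGATA lungs, against 5.69, 5.88 and 4.53 FPKM in wild-type lungs, and Prg2, which encodes eosinophil major basic protein, had 0.0794, 0.677 and 0.529 FPKM in dGATA lungs, against 12.2, 10.9 and 6.00 FPKM in wild-type lungs. The sum of 6 eosinophil markers ran from 6.47 to 9.18 FPKM in dGATA lungs and from 18.6 to 28.1 FPKM in wild-type lungs; 2 of the 4 tested fell, and Epx was listed at 0 in all dGATA lungs. Mast cell and basophil markers summed to 148 to 159 FPKM in dGATA lungs and 131 to 140 FPKM in wild-type lungs, with none called. The sums of other lists shifted with genotype too, with none of their genes called. The dendritic cell sum was 35.1 to 47.7 FPKM in dGATA lungs and 48.6 to 53.3 FPKM in wild-type lungs. Of that list, Cd209a had 5.51, 6.57 and 7.78 FPKM in dGATA lungs against 11.9, 17.4 and 10.8 FPKM in wild-type lungs. The other dendritic cell markers overlapped between genotypes. Clec9a, for example, had 17.4, 11.4 and 12.7 FPKM in dGATA lungs and 14.5, 10.5 and 15.4 FPKM in wild-type lungs. The neutrophil sum overlapped, at 154, 268 and 222 FPKM in dGATA lungs and 314, 385 and 263 FPKM in wild-type lungs. Its members disagreed in direction: Retnlg had 8.47, 88.4 and 41.0 FPKM in dGATA lungs against 228, 209 and 144 FPKM in wild-type lungs, and Mmp8 had 2.20, 1.89 and 2.21 FPKM in dGATA lungs against 0.913, 1.24 and 1.14 FPKM in wild-type lungs. The epithelial sum was 96520 to 119000 FPKM in dGATA lungs and 80520 to 91910 FPKM in wild-type lungs. The part of cell makeup, eosinophil content included, in the values of Alox5, Alox15 and Cyp4f18 was not tested.

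**Figure D5:**
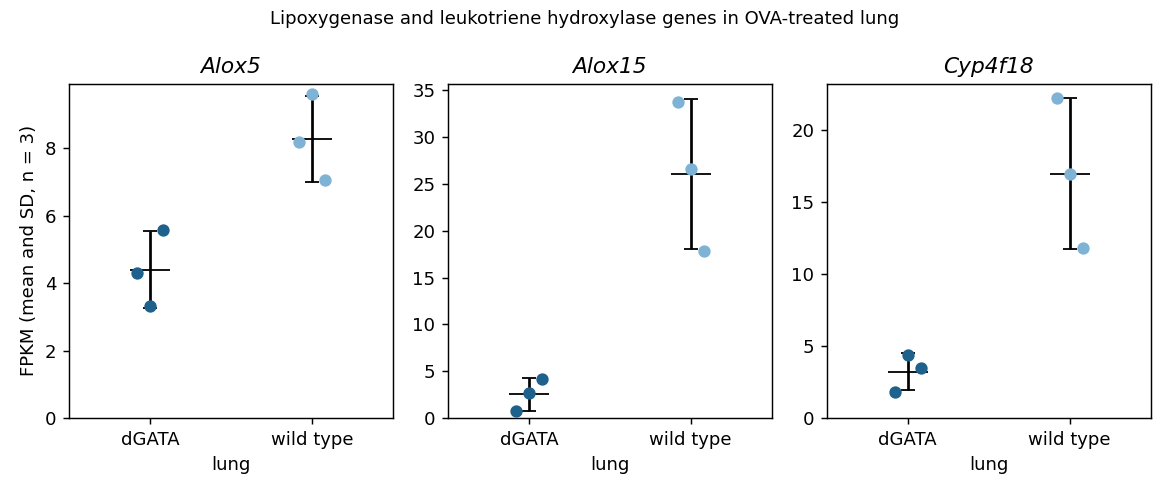
FPKM of Alox5, Alox15 and Cyp4f18 in lungs of OVA-treated dGATA and wild-type mice; points are libraries, lines are the mean and SD (n = 3 each), and each panel has its own axis from 0. The dGATA libraries lie below all wild-type libraries in each panel, for Alox5 at 3.32 to 5.59 FPKM in dGATA lungs against 7.06 to 9.60 FPKM in wild-type lungs.

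Across the mouse groups, Alox5, Alox5ap, Ltc4s and Ptgs1 had higher levels in lung, Ptger4, Ptger2 and Cysltr1 had higher levels in Th2 cells, and Lta4h, Ptgs2 and Hpgds followed neither pattern. Levels of Th2 cells and lung come from 1 kind of table but were not tested against each other. Alox5 was ordered from Th2 cells with IL-33 (0.300 FPKM) through Th2 cells with IL-2 (1.15 FPKM) and dGATA lung (4.40 FPKM) to wild-type lung (8.28 FPKM), and no neighbours in that order overlapped. Alox5ap averaged 56.0 FPKM in dGATA and 62.3 FPKM in wild-type lung, which overlapped, and at most 1.37 FPKM in Th2 cells. Ltc4s (14.1 FPKM in dGATA and 17.1 FPKM in wild-type lung) and Ptgs1 (35.2 FPKM in dGATA and 30.4 FPKM in wild-type lung) had overlapping lung groups and were near 0 in Th2 cells. Lta4h was the most even of the leukotriene genes: dGATA lung, wild-type lung and Th2 cells with IL-2 lay between 24.9 and 26.2 FPKM and overlapped, and Th2 cells with IL-33 lay below them. In the opposite direction, Ptger4 averaged 36.8 FPKM in Th2 cells with IL-33 and 127 FPKM with IL-2, against 3.39 FPKM in dGATA and 3.93 FPKM in wild-type lung. Ptger2 had the same order of groups, and in both genes only the lung groups overlapped. Cysltr1 averaged 224 FPKM in Th2 cells with IL-33, 115 FPKM with IL-2, 1.70 FPKM in dGATA lung and 2.16 FPKM in wild-type lung. Ptgs2 was highest in Th2 cells with IL-33, then in lung (5.49 FPKM in dGATA and 5.62 FPKM in wild type, which overlapped), and lowest in Th2 cells with IL-2. Hpgds lay between 0.774 and 1.43 FPKM in all groups, and each neighbour overlapped. In the eosinophil tables, which share no scale with the mouse tables, the order by mean without amphiregulin was ALOX5AP (448 FPKM), LTC4S (185), ALOX5 (170), LTA4H (108), PTGS1 (19.4), PTGER4 (12.2), CYSLTR1 (8.48), PTGER2 (6.15), HPGDS (5.58) and PTGS2 (0.731).

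For each gene whose mouse group means spanned at least 2 log2 units, the genes nearest in profile were found over the 12 mouse libraries among 14148 genes, by the Euclidean distance between log2(FPKM + 1) profiles centred on their means. The points share their 2 tissues, so nearness mostly reflects the contrast of Th2 cells with lung. Ptgs1 lay nearest to Cldn7 (distance 0.40) and Dll4 (0.41), and Ltc4s to Nod1 (0.50) and Adrbk2 (0.58). Ptger2 lay nearest to Nop2 (0.42) and Mybbp1a (0.45), and Alox5 to Icosl (0.72) and Nr1d2 (0.86). The remaining profiles had less close neighbours: Cysltr1 had Satb1 (0.91) and Cd28 (1.14), Ptgs2 had Adk (1.03) and Emb (1.11), Ptger4 had Cdkn2a (1.12) and Cd5 (1.14), and Alox5ap had Tst (1.27) and Krt80 (1.36). Lta4h and Hpgds spanned 0.69 and 0.46 log2 units and were left out.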

How the data were processed

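FPKM values per gene were deposited by the authors, who made them with Cufflinks 2.0.2, TopHat 1.3.2, Bowtie 0.12.8 and mm10, per the submitters' processing notes; RNA was taken with TRIzol and made into libraries with a stranded mRNA kit, per the labels' protocols. Samples were grouped by their titles. The eosinophil tables hold human symbols, with chromosome 1 genes ending as far as 249213345, and as far as 195176715 in the mouse ones. Entries were summed per symbol, and 139 human symbols (genes of the Y chromosome or of X inactivation) were removed. Adding 1 to mouse starts gave the RefSeq start for 55.7% of 20723 symbols, where 3.4% had it before. The genes, lists and tests were chosen with earlier results of these data known.

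Each comparison used its own 6 libraries. limma 3.58.1 in R 4.3.3, with the trend option and a pseudocount of 1, gave Benjamini-Hochberg adjusted p-values; the step was tested on simulated data. Genes below the filter had a two-sided exact permutation test. Besides the 10 genes, pathway genes were named if called, or else the 3 with the smallest p. Of 74 cell type markers, 73 matched mouse and 72 human symbols. Relative depth came from ratios of FPKM values below 0.2 in bins of 0.01 log2 units; no counts were recovered and depth gives no interval here. Median-of-ratios and TPM scaling, other pseudocounts and filters, left-out libraries and shared fits were alternatives. No 2 libraries of a group held identical values.

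Sample numbers recur between the eosinophil groups, and libraries of equal number correlated at 0.398, 0.356 and 0.669 after the group means were removed, above the threshold of 0.1, so the numbers were taken as pairs from the data. Numbers 2 and 3 correlated across, too, at 0.28 and 0.308.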

Additional observations from a re-analysis of the deposited data

How the results depend on the processing

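In the IL-33 comparison, genes called higher ran from 1210 to 1727 and lower from 1530 to 3135 when single libraries were left out (1680 and 2651 with all), and 1586 were lower under rescaling to a common sum (TPM). Of the 10 genes, 1 to 2 were then called higher and 2 to 3 lower; 5 were lower with no filter, and 2 higher in 1 fit of 12 libraries. With amphiregulin the counts, 4 higher and 22 lower, were 1 and 6 with a pseudocount of 0.1, 2 and 6 with the filter at 5 FPKM, and 0 and 0 without small RNA features. They were 2 higher with no filter, 8 higher under TPM (26.7% of calls higher, against 15.4%), 0 to 48 higher and 4 to 24 lower with single libraries left out, the highest without amphiregulin replicate 4. With the replicate block they were 67 and 74, and 422 and 260 with the block and without number 4, an alternative chosen after seeing the data. In dGATA lung, 6 higher and 7 lower became 4 lower with the filter at 5 FPKM, 19 and 77 in 1 fit of 12 libraries, and 1 to 7 higher and 1 to 9 lower with single libraries left out. The dGATA sample numbers did not pair the libraries (correlations -0.286, -0.116 and -0.243), and the replicate block there gave 2 higher and 1 lower. No number recurs between the Th2 groups, so no paired fit was made. Correlations between their libraries ran from -0.273 (IL-33 replicate 2 with IL-2 replicate 5) to 0.314 (IL-33 replicate 6 with IL-2 replicate 5). Whether any of these libraries belong together was not tested. The cause of the shifts in counts was not tested.

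No call of the 10 genes in the eosinophils or lung appeared under any alternative run. Directions turned under TPM for ALOX5AP (0.0963), LTC4S (0.027), PTGER2 (0.0338) and PTGER4 (0.1381), for PTGER2 (0.3899) and PTGER4 (0.4039) with the block and without number 4, and for Ptgs2 in the lung (0.0194) under median-of-ratios scaling. With single libraries left out, the log2 difference ran from -0.8541 to 0.4651 for LTC4S, -1.6681 to 0.1906 for LTA4H, -0.4808 to 0.4735 for PTGER2, -0.3268 to 0.1936 for PTGER4 and -0.2316 to 0.371 for CYSLTR1. In the lung it ran from -0.3713 to 0.0693 for Alox5ap, -0.1377 to 0.0145 for Lta4h, -0.1477 to 0.1039 for Ptgs2, -0.4053 to 0.1032 for Hpgds and -0.4831 to 0.0671 for Ptger4, and in Th2 cells from -0.2322 to 0.0 for Ltc4s. Of the other single-gene values, 335 without and 250 with a library left out kept direction and side of the threshold.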
